A study of Rattus norvegicus with 8 samples.

Results

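The genes described here drive the cell division cycle: the factors that license and copy DNA, the cyclins and their kinases, and the machinery of mitosis and cytokinesis. A list of 54 such genes was matched to the array by gene symbol, and 42 of them were found among the 11217 genes that the array reads with 1 symbol. For the 8 of the 42 genes that several probe sets read, the probe set with the highest overall mean was used. The genes not analysed here were Cdc6, Rrm2, Ccne1, Mybl2, Birc5, Plk1, Nek2, Cenpe, Ndc80, Kif2c, Tpx2 and Anln.

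Lung tissue from the dorsal-caudal quadrant of male Harlan Sprague-Dawley rats of 340 to 400 g was compared between 3 groups. All ventilated rats were anesthetized, with a tracheotomy and a jugular cannula, and received a high tidal volume of 18 mL/kg at 40 breaths per minute with no end-expiratory pressure (0 cmH2O) for up to 3 hours. Of these, 3 lay prone and 3 supine; 2 rats were not ventilated and served as controls. The condition label gives high tidal volume for both positions, but the titles read HVt for prone and SVt for supine samples, so a difference in tidal volume cannot be told apart from position between prone and supine lungs. The samples are titled as biological replicates; the labels leave unclear whether the controls were anesthetized and cannulated as well. The tissue showed the genes that define lung: on average over the control arrays Sftpc, the alveolar type 2 surfactant protein, stood at 15.46 and Scgb1a1, the club cell secretoglobin, at 15.69 on the log2 scale, near the top of its range.

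A cell that divides first loads the Mcm helicase onto its origins with Cdc6 and Cdt1. E2F factors and cyclin E then switch on DNA synthesis, and later cyclin A, cyclin B and the kinase Cdk1 bring the cell into mitosis. In resting cells both waves of genes are held down by complexes built on pocket proteins. The earlier wave is held mostly through E2F sites, and the later, mitotic wave mostly through the cell cycle homology region (CHR), a short element that often lies downstream of CCAAT boxes bound by NF-Y. Few cells divide in the healthy adult lung, and the division of alveolar type 2 cells, endothelium and macrophages after injury is usually described over days.

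The promoters are shown first, because the listed genes differed in these elements by role. Whether the elements bear on the values was not tested. RefSeq promoter windows (GRCr8, 250 bases before to 50 after each gene's start) were found for 34 of the 42 genes, and not for Mcm4, Ccne2, Ccna2, E2f1, Foxm1, Aurkb, Ube2c and Racgap1. Both strands were searched for the CHR letters TTTGAA and for the box CCAAT. An E2F match was TTTCCCG or any of these variants: the variant TTTCGCG, the variant TTTGGCG and the variant TTTGCCG. Among all these, 1 pair of matches of different motifs overlapped. CHR letters were present in 17 of the 34 windows (50%), against 18.3% of all 33469 windows in the table and 11.7% of the 9349 windows of genes on the array. CHR and CCAAT letters together were present in 13 of 34 (38.2%), against 7.41% of all windows and 4.76% of those of genes on the array. E2F letters were present in 8 of 34 (23.5%), against 6.8% and 10.8%. The elements divided by role: E2F letters were found in 7 of 11 genes of replication and G1/S and in 1 of 23 genes of G2 and mitosis, and CHR letters in 1 of 11 and 16 of 23. A match describes the letters only and is not a bound site.

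The 250 bases upstream of the start are printed for the cyclin gene Ccnb2, the kinetochore gene Spc25 and the securin gene Pttg1, the 3 tested genes with CHR and CCAAT letters whose supine minus control difference was largest for its error. Mcm2, a helicase subunit with E2F letters and the lowest of its class in prone lungs for its error, was added for contrast after its values were seen. Each reads 5′ to 3′ along the gene, with CHR, CCAAT and E2F letters of either strand in capitals. All 4 genes lie on the minus strand: Ccnb2 at chr8:79981659-79981908, Spc25 at chr3:74396719-74396968, Pttg1 at chr10:28406327-28406576 and Mcm2 at chr4:122918095-122918344.
Ccnb2: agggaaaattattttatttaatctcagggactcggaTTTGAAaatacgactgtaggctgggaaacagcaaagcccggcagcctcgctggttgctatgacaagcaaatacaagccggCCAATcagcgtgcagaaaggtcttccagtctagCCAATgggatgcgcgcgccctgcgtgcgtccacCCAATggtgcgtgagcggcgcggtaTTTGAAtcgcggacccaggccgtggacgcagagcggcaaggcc
Spc25: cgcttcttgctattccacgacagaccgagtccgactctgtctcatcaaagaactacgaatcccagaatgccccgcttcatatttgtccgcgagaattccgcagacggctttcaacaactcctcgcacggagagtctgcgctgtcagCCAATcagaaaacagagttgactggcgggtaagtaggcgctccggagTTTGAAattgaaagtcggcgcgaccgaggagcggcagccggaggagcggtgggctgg
Pttg1: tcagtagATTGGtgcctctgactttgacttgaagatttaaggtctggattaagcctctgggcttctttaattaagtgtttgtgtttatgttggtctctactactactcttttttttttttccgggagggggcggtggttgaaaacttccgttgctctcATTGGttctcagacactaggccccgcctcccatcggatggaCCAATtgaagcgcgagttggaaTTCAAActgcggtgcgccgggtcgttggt
Mcm2: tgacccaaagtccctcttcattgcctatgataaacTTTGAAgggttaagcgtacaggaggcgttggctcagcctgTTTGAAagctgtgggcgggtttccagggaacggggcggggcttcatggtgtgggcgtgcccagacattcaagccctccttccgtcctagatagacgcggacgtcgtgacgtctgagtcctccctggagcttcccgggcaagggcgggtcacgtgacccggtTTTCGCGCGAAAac
In Ccnb2 the nearer CHR letters began 43 bases before the start, downstream of 3 CCAAT boxes that began at 134, 101 and 68 bases before it. In Spc25 the CHR letters began 57 bases and the upstream CCAAT box 104 bases before the start, with a second CCAAT box downstream of the start. In Pttg1 the CHR letters, on the opposite strand, lay 29 to 24 bases before the start. Mcm2 had no CCAAT letters. Its 2 E2F matches, on opposite strands, overlapped each other between 14 and 3 bases before the start, and its 2 CHR matches lay far upstream, from 215 and 175 bases before it.

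The arrays varied in quality. Array medians lay between 7.77 and 7.95. Supine replicate 3 stood apart: its 3′ GAPDH control exceeded the 5′ one by 8.41 log2 units against 0.70 to 1.92 on the other arrays, a ratio commonly read as a measure of RNA integrity. The first prone and first supine array correlated with each other (r = 0.975 over all probe sets) more than with the other arrays of their own groups. Results were therefore also computed without supine replicate 3 and without both first arrays.

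More of the listed genes stood above both controls in ventilated lungs than below them, most of them genes of G2 and mitosis, with Kif15 and Kif23 among the exceptions. Values are log2 signals, so 1 unit is a doubling of signal. In prone lungs 17 of the 42 genes were higher on all 3 arrays than on both controls, or 40.5%, where 19.2% of all genes were; 9 were lower on all 3 (21.4%, against 28.3% of all genes). In supine lungs 24 were higher in this way (57.1%, against 19.4% of all genes) and 4 were lower (9.52%, against 22.6%). The list was chosen with earlier results of these data known, so the shares describe it and are no independent test. By their means, 26 of the 42 genes were higher in prone lungs, where 42.8% of all genes were, and 31 in supine lungs, where 47.3% were. The median difference over the 42 genes was 0.19 for prone and 0.72 for supine against control, where the median over all genes was -0.12 and -0.05. Both comparisons share the 2 control arrays, which lay close together (r = 0.988).

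No listed gene passed the test across all probe sets (limma, Benjamini-Hochberg adjusted p under 0.05). A gene was tested where it reached log2 5 on at least 2 arrays, as 34 of the 42 did; Tyms, Ccnb1, Foxm1, Melk, Bub1b, Ttk, Cdc20 and Kif11 did not, and their values near the low end of the scale are given without a test. Ube2c, Pttg1 and Kif20a lay under that level on both controls and so were tested because of the ventilated arrays. Without these 3 the median over tested genes was 0.17 in prone and 0.41 in supine lungs, and with them 0.23 and 0.69. Over all probe sets the test passed 0.0533% (9 of 16896) in prone and likewise 9 in supine lungs against control, of which 1 each was higher (0.00592%) and 8 each lower (0.0473%). At an unadjusted p under 0.05, 7 of 34 listed genes were higher and 2 lower in prone lungs, against 6.36% and 10.7% of all genes tested. In supine lungs 12 were higher and 2 lower, against 6.48% and 7.86%. Without Ube2c, Pttg1 and Kif20a the counts were 4 higher (12.9%) and 2 lower of 31 in prone lungs and 9 higher (29%) and 2 lower in supine lungs. With the replicate number as a block, the count of listed genes past the threshold was again 0 in each comparison, and that of all probe sets was 0 in place of 9.

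**Figure D1:**
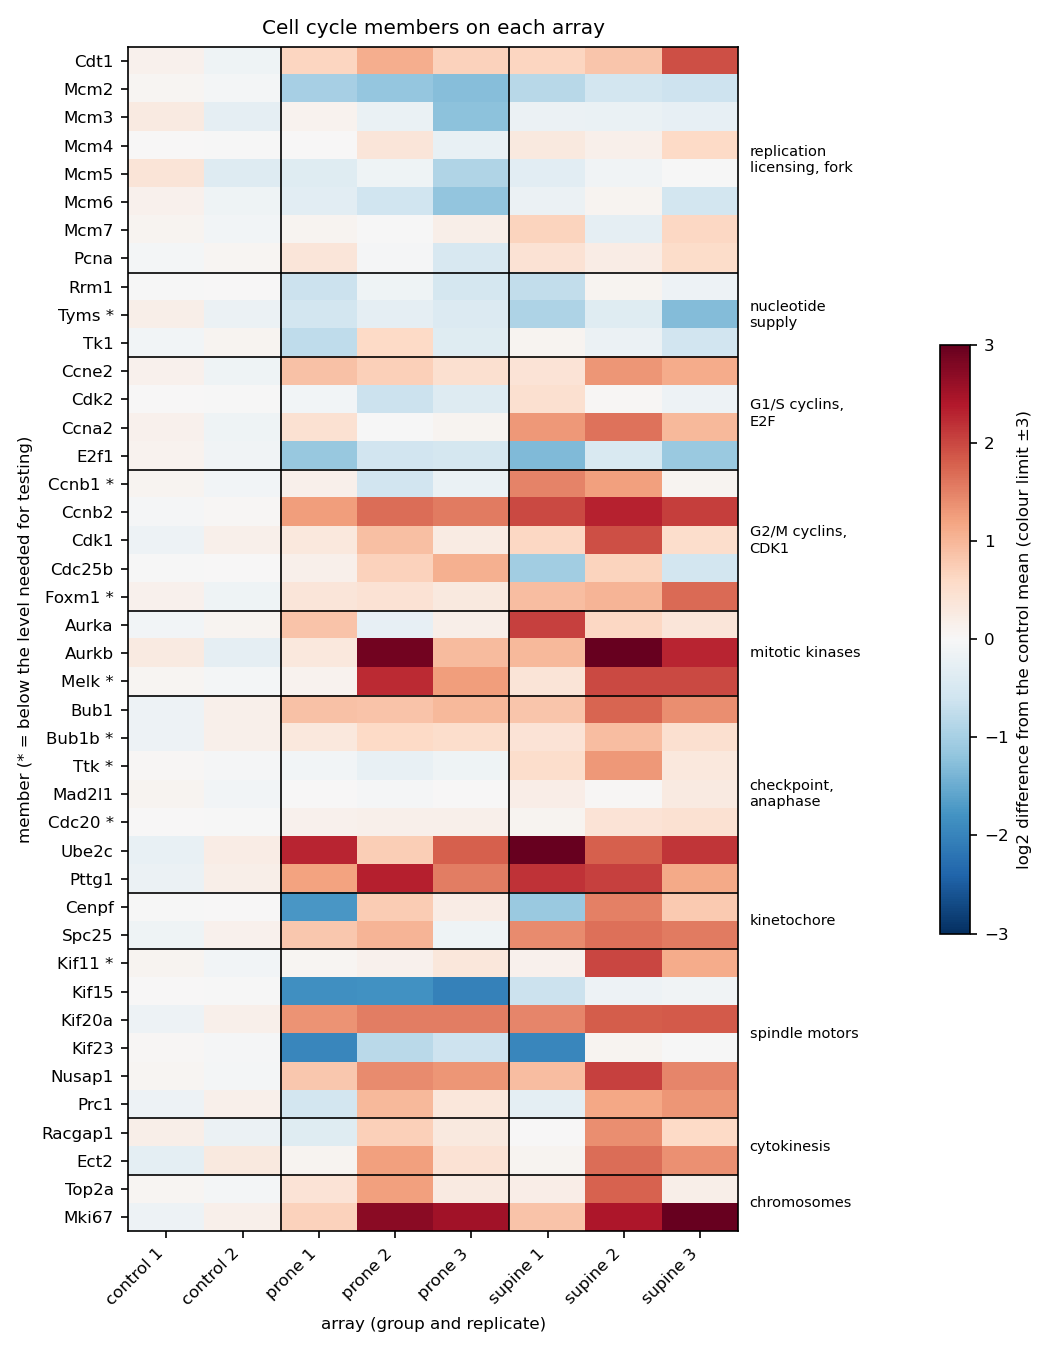
Each row is 1 of the 42 listed genes and each column 1 of the 8 arrays; colour is the log2 difference from the mean of the 2 control arrays, with the colour scale ending at 3 in each direction. Red fills most rows of G2 and mitosis on the supine arrays, where 19 of 27 genes lie above both controls on all 3 arrays (70.4%, against 19.4% of all genes), while Mcm2, E2f1 and, in prone lungs, Kif15 are blue.

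The genes that license and copy DNA showed no common direction. Of the 8 on the array, 1 was higher and 2 were lower on all prone arrays than on both controls, and 3 were higher and 1 lower on all supine arrays, small counts where 19.2% and 28.3% of all genes were higher and lower in prone and 19.4% and 22.6% in supine lungs. Mcm2, a subunit of the replicative helicase, read 8.77 and 8.63 on the controls, 7.71, 7.53 and 7.41 on prone and 7.86, 8.15 and 8.07 on supine replicates 1 to 3. Every ventilated array lay below both controls. Its difference was -1.15 ± 0.27 in prone (SE; adjusted p = 0.114 by limma) and -0.67 ± 0.27 in supine lungs (adjusted p = 0.304). Mcm6, another subunit of the same ring, read 8.34 and 8.08 on the controls, 7.89, 7.61 and 7.03 on prone and 8.04, 8.29 and 7.67 on supine arrays. It was below both controls on each prone array (-0.70 ± 0.36, adjusted p = 0.358; -0.46 without prone replicate 3) and overlapped them in supine lungs. Mcm3 and Mcm5 stood at -0.44 ± 0.43 and -0.47 ± 0.36 in prone lungs, whereas Mcm4 and Mcm7 stood at 0.05 ± 0.30 and 0.08 ± 0.35. The subunits of 1 helicase thus spread over more than 1 log2 unit.

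Cdt1, which loads that helicase, went the other way. It read 6.80 and 6.54 on the controls, 7.31, 7.75 and 7.35 on prone and 7.31, 7.50 and 8.59 on supine arrays, each ventilated array above both controls. The difference was 0.80 ± 0.43 in prone and 1.13 ± 0.43 in supine lungs (adjusted p = 0.376 and 0.297, limma), and 0.74 in supine lungs without supine replicate 3. Pcna, the sliding clamp of the DNA polymerases, stood at 11.64 ± 0.07 on the controls (SD, n = 2) and differed by -0.05 ± 0.33 in prone and 0.41 ± 0.33 in supine lungs. Its sign in prone lungs turned (0.10) when arrays were centred on their medians.

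The 3 genes of nucleotide supply on the array lay lower or near the controls. Rrm1, the large subunit of ribonucleotide reductase, read 8.99 and 9.01 on the controls, 8.36, 8.87 and 8.47 on prone and 8.28, 9.09 and 8.84 on supine arrays. Its groups overlapped in supine lungs, and the differences were -0.44 ± 0.34 and -0.27 ± 0.34 (adjusted p = 0.541 and 0.708, limma). Tyms, thymidylate synthase, lay below both controls on every ventilated array but low on the scale, at 4.71 and 4.33 on the controls and between 3.23 and 4.24 otherwise. Tk1, the salvage thymidine kinase, stood at -0.18 ± 0.44 in prone and -0.23 ± 0.44 in supine lungs.

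At the G1/S step the cyclins and their transcription factor parted on the probe sets used. E2f1, which activates genes of DNA synthesis, read 5.89 and 5.69 on the controls, 4.67, 5.21 and 5.27 on prone and 4.46, 5.33 and 4.68 on supine arrays, below both controls on all 6. Its difference was -0.74 ± 0.36 in prone and -0.97 ± 0.36 in supine lungs (adjusted p = 0.34 and 0.295, limma). Ccne2, a cyclin E that partners Cdk2, was above both controls on all 6 ventilated arrays on the probe set used. It stood at 0.69 ± 0.35 in prone and 0.95 ± 0.35 in supine lungs (adjusted p = 0.357 and 0.292, limma). Its other probe set, also tested, overlapped the controls, at 0.15 in prone and 0.26 in supine lungs. Cdk2 itself stood at -0.37 ± 0.32 and 0.12 ± 0.32. Ccna2, the cyclin of S phase and early mitosis, read 6.23 and 5.97 on the controls and 6.54, 6.09 and 6.18 on prone arrays, which overlapped them. On supine arrays it read 7.40, 7.73 and 7.07, above every other array, a difference of 1.30 ± 0.32 from control (adjusted p = 0.211).

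Among the genes that start mitosis, Ccnb2, a cyclin B that activates Cdk1, had the smallest p of the list in supine lungs. It read 5.59 and 5.65 on the controls, 6.88, 7.30 and 7.17 on prone and 7.61, 7.94 and 7.70 on supine arrays. The 3 groups did not overlap. The difference from control was 1.50 ± 0.28 in prone and 2.13 ± 0.28 in supine lungs (adjusted p = 0.0955 and 0.0808, limma). The adjusted p for supine lungs was 0.0468 without supine replicate 2 and 0.0328 with weighted arrays, and ranged up to 0.893 over the alternatives. Cdk1, the kinase it activates, was above both controls on all 6 ventilated arrays, by 0.49 ± 0.48 and 1.03 ± 0.48 on average, or 0.28 without prone replicate 2 and 0.58 without supine replicate 2. Foxm1, a transcription factor of mitotic genes, lay low at 3.35 and 3.11 on the controls, 3.53 to 3.66 on prone and 4.15 to 4.92 on supine arrays. Ccnb1 was low as well, and its 2 probe sets differed in sign in prone lungs (-0.21 and 0.97). Cdc25b, a phosphatase that activates Cdk1, read 8.72 and 8.76 on the controls, 8.89, 9.43 and 9.81 on prone and 7.70, 9.41 and 8.18 on supine arrays, higher than both controls in prone lungs and on either side of them in supine lungs.

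**Figure D2:**
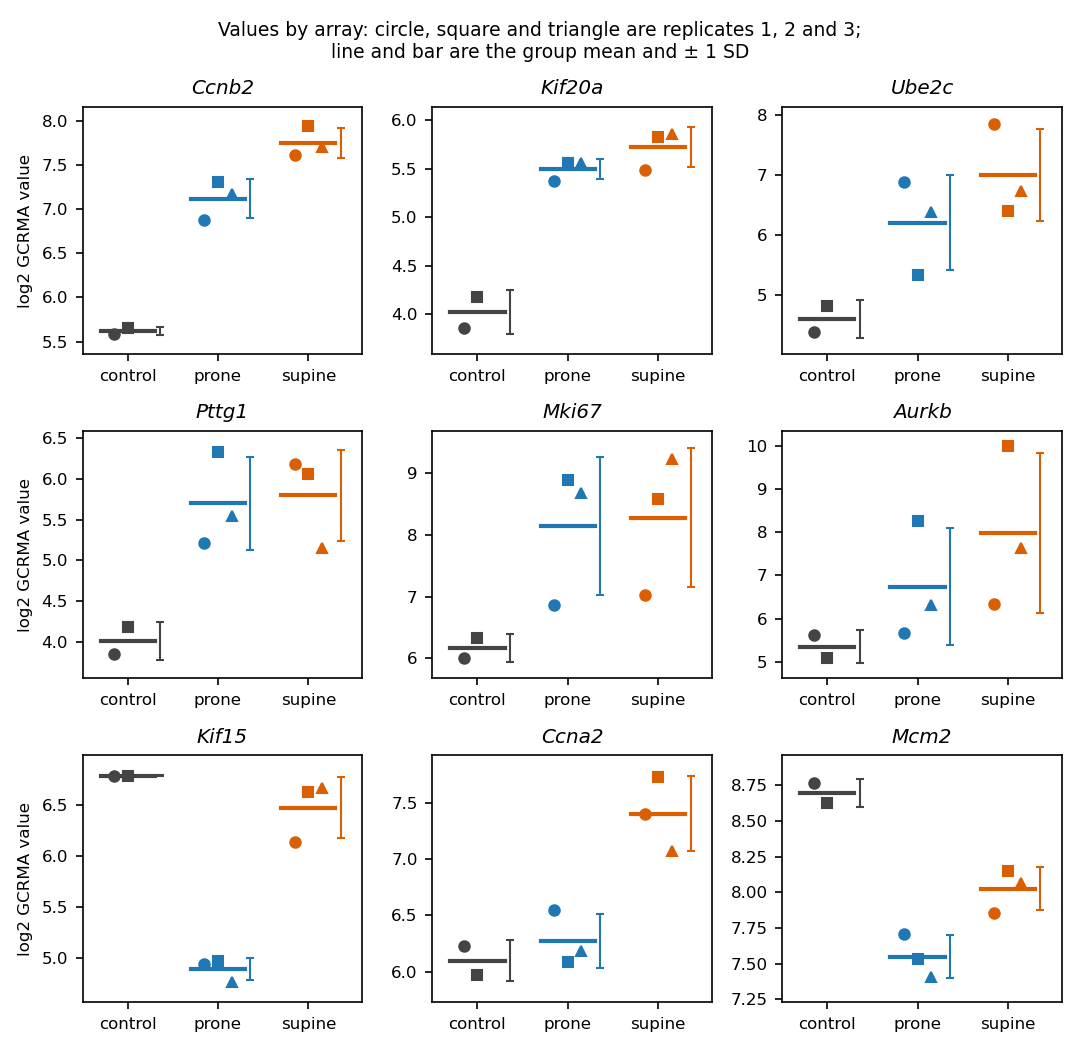
Log2 values of 9 listed genes on each array, by group (2 control, 3 prone, 3 supine); symbols mark the replicate number, lines group means and bars 1 SD in each direction, and each panel has its own axis, which does not start at 0. Ccnb2 and Kif20a lie close together within groups and above the controls, Kif15 lies between 4.76 and 4.97 in prone lungs and just below the controls in supine lungs, Ccna2 lies above all other arrays in supine lungs, and Mki67 and Aurkb are lowest on replicate 1 of both ventilated groups.

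The mitotic kinases varied widely between rats. Aurkb, the Aurora kinase of the chromosomal passenger complex, read 5.62 and 5.08 on the controls, 5.66, 8.25 and 6.31 on prone and 6.33, 9.99 and 7.64 on supine arrays. All 6 ventilated arrays lay above both controls, prone replicate 1 only just. The difference was 1.39 ± 1.11 in prone (adjusted p = 0.555, limma) and 2.64 ± 1.11 in supine lungs (adjusted p = 0.322), and fell to 0.63 without prone replicate 2 and 1.64 without supine replicate 2. Aurka, the Aurora kinase of the spindle poles, stood at 0.26 ± 0.56 and 1.02 ± 0.56, with its highest value, 7.70, on supine replicate 1, without which the supine difference was 0.50. Melk, a kinase of proliferating cells, was not tested; it read 2.81 and 2.69 on the controls, 2.86, 4.98 and 4.01 on prone and 3.13, 4.74 and 4.73 on supine arrays.

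Most spindle checkpoint and anaphase genes lay above the controls. Of 7 on the array, 5 were higher on all prone arrays and 6 on all supine arrays than on both controls, where 19.2% and 19.4% of all genes were. Ube2c, the ubiquitin-conjugating enzyme of the anaphase-promoting complex, read 4.39 and 4.83 on the controls, 6.89, 5.35 and 6.39 on prone and 7.86, 6.40 and 6.74 on supine arrays. It was higher by 1.60 ± 0.58 and 2.39 ± 0.58 (adjusted p = 0.219 and 0.211, limma). Pttg1 is the securin that keeps sister chromatids from separating before anaphase. It read 3.84 and 4.17 on the controls, 5.21, 6.33 and 5.55 on prone and 6.19, 6.06 and 5.15 on supine arrays. No ventilated array overlapped the controls, and the differences were 1.69 ± 0.46 and 1.79 ± 0.46 (adjusted p = 0.142 and 0.213). Bub1, a checkpoint kinase at the kinetochore, read 5.12 and 5.42 on the controls, 6.15, 6.12 and 6.24 on prone and 6.10, 7.02 and 6.65 on supine arrays, with differences of 0.90 ± 0.34 and 1.32 ± 0.34 (adjusted p = 0.227 and 0.213). Its partner Bub1b and the activator Cdc20 were above both controls on all ventilated arrays too, by at most 0.61 on average. Mad2l1, the checkpoint protein that inhibits Cdc20, stood at 0.00 ± 0.25 and 0.17 ± 0.25. Its other probe set differed, at -0.87 in prone and -0.43 in supine lungs.

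Of the kinetochore genes, Spc25, a subunit of the Ndc80 complex that grips microtubules, read 5.16 and 5.42 on the controls, 6.09, 6.32 and 5.17 on prone and 6.71, 6.94 and 6.86 on supine arrays. Prone replicate 3 lay among the controls. The difference was 0.57 ± 0.39 in prone (0.92 without prone replicate 3 and 0.34 without prone replicate 2; adjusted p = 0.484, limma) and 1.55 ± 0.39 in supine lungs (adjusted p = 0.211). Cenpf, a large protein of the outer kinetochore, read 5.59 and 5.62 on the controls but 3.87 on the first prone and 4.50 on the first supine array, against 5.83 to 7.13 on the other ventilated arrays.

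The spindle motors and microtubule proteins held large differences in both directions. Kif20a, a kinesin of the central spindle, read 3.86 and 4.18 on the controls, 5.38, 5.56 and 5.56 on prone and 5.48, 5.83 and 5.86 on supine arrays, and was higher by 1.48 ± 0.28 and 1.71 ± 0.28 (adjusted p = 0.0962 and 0.143, limma). Nusap1, which bundles spindle microtubules, was above both controls on all 6 arrays on both of its probe sets, by 1.19 ± 0.39 and 1.48 ± 0.39 on the brighter one (adjusted p = 0.195 and 0.22). Kif15, a kinesin that helps to keep spindle poles apart, read 6.79 on both controls, 4.94, 4.97 and 4.76 on prone and 6.14, 6.63 and 6.67 on supine arrays. Its difference was -1.90 ± 0.29 in prone lungs (adjusted p = 0.0721, the smallest of the list in that comparison) and -0.31 ± 0.29 in supine lungs (adjusted p = 0.606; -0.14 without supine replicate 1). In a fit of prone and control arrays alone the adjusted p of Kif15 was 0.0493 (limma), and more of all probe sets passed in that fit too. With the replicate number as a block no listed gene passed. Kif23, a kinesin of the midbody, read 9.21 and 9.16 on the controls, 7.22, 8.38 and 8.56 on prone and 7.23, 9.27 and 9.17 on supine arrays (-1.13 ± 0.68 and -0.63 ± 0.68; adjusted p = 0.434 and 0.661). In supine lungs that difference rested on replicate 1 and was 0.03 without it.

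The genes of cytokinesis and chromosome structure were often lowest on the first replicate. Ect2, which activates RhoA at the cleavage site, read 6.17 and 6.75 on the controls, 6.54, 7.69 and 6.88 on prone and 6.55, 8.14 and 7.82 on supine arrays, and overlapped the controls in both groups (0.58 ± 0.56 and 1.05 ± 0.56; adjusted p = 0.623 and 0.401, limma). In prone lungs its difference was 0.29 without control replicate 1, 0.87 without control replicate 2 and 0.26 without prone replicate 2. Racgap1, its partner at the central spindle, stood at 0.21 ± 0.49 and 0.66 ± 0.49, the latter 0.29 without supine replicate 2. Mki67, the nuclear protein Ki-67 by which dividing cells are usually counted, read 6.01 and 6.33 on the controls, 6.86, 8.89 and 8.68 on prone and 7.03, 8.59 and 9.23 on supine arrays. All 6 ventilated arrays lay above both controls, with differences of 1.97 ± 0.79 and 2.11 ± 0.79 (adjusted p = 0.254 and 0.295). Top2a, the topoisomerase that untangles sister chromatids, stood at 0.64 ± 0.55 and 0.71 ± 0.55, and was highest, at 7.59, on supine replicate 2, without which the supine difference was 0.19. Without prone replicate 2 the prone difference was 0.35. Its other probe set, also tested, stood at 0.96 and 1.70, and was highest on the same array.

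**Figure D3:**
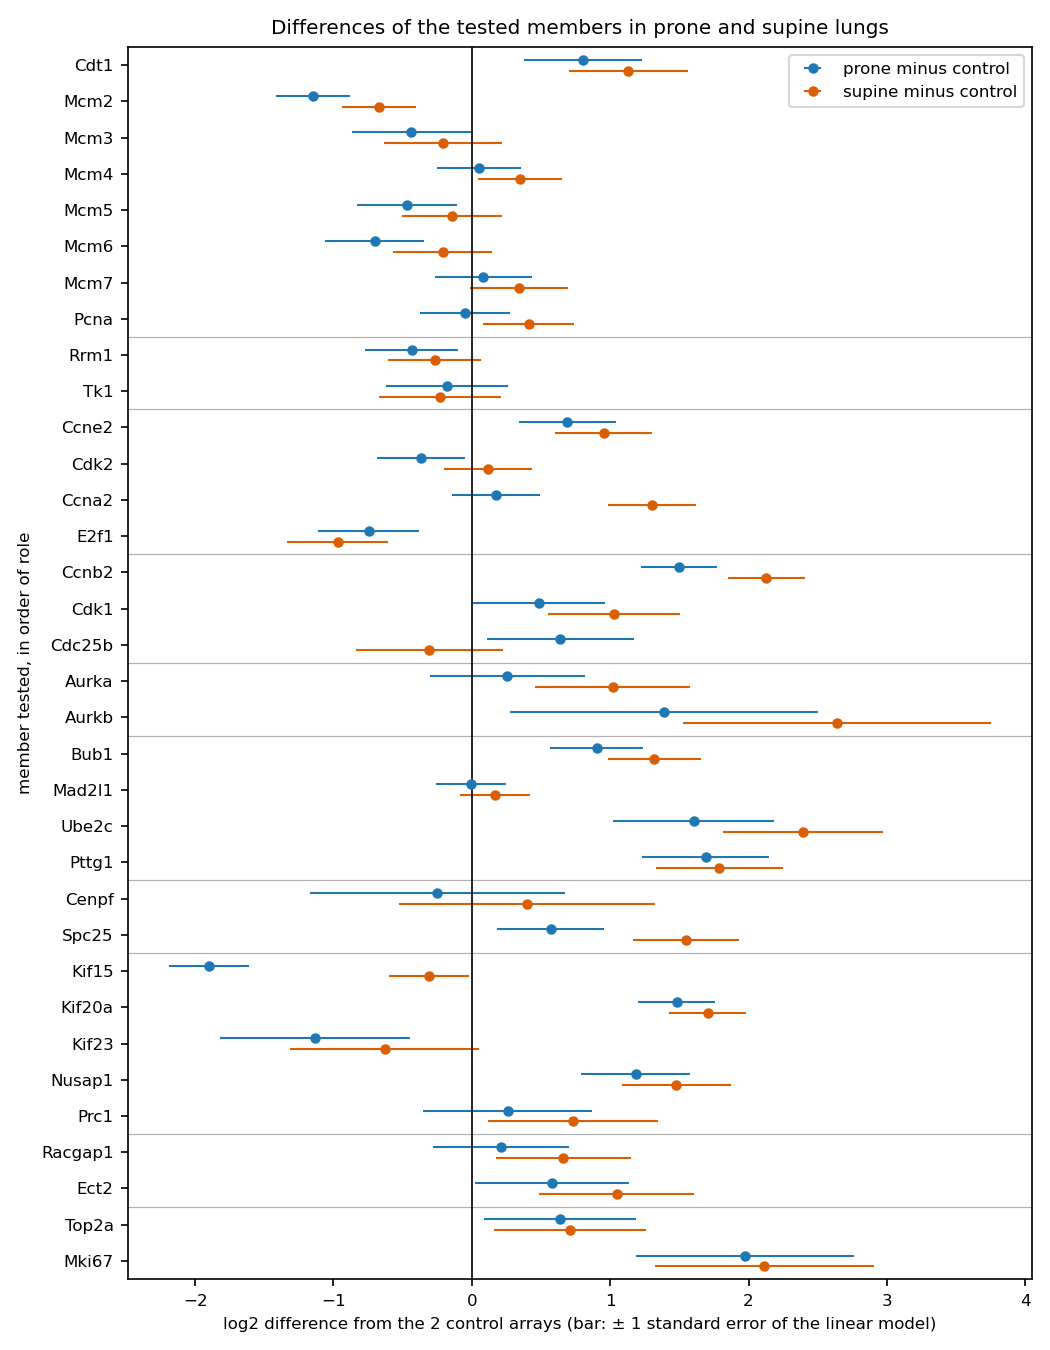
Log2 difference from the 2 control arrays for the 34 tested genes in order of role, blue for prone and orange for supine lungs (3 arrays each), with bars of 1 standard error of the linear model in each direction. Points for Ccnb2, Aurkb, Ube2c, Pttg1, Kif20a, Nusap1 and Mki67 lie above 1 in both groups, and Kif15 lies at -1.90 in prone and -0.31 in supine lungs. Ube2c, Pttg1 and Kif20a lay under the level for testing on both controls and were tested because of the ventilated arrays. No point passed the adjusted threshold.

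Divided by phase after the values were seen, 15 genes belonged to replication and G1/S and 27 to G2 and mitosis. Of the later genes, 15 were higher on all prone arrays than on both controls (55.6%, against 19.2% of all genes) and 3 lower (11.1%, against 28.3%). On all supine arrays 19 were higher (70.4%, against 19.4%) and 1 lower (3.7%, against 22.6%). Of the earlier genes, 2 were higher in prone lungs (13.3%) and 6 lower (40%), and in supine lungs 5 were higher (33.3%) and 3 lower (20%, near the share of all genes). The median difference of the later genes was 0.49 in prone and 1.03 in supine lungs, and that of the earlier genes -0.37 and -0.15. By motif, the 17 genes with CHR letters had a median difference of 0.72 in supine lungs and 14 of them stood above the control mean, and the 17 without had a median of 0.34 with 10 above it. The 13 genes with both CHR and CCAAT letters had a median of 1.03 and 12 above, against 0.17 and 12 of the 21 others. The 8 genes with E2F letters had a median of -0.18 and 3 above, against 0.73 and 21 of the 26 others. Mcm2, with both E2F and CHR letters, lay below the controls, and Kif15, Kif23 and Ttk held CHR letters and lay below them in prone lungs. Cenpf, also with CHR letters, differed by -0.25 in prone lungs with overlapping arrays. In prone lungs 11 of the 17 genes with CHR letters and 8 of the 17 without stood above the control mean. Later genes with a window but no CHR letters included Kif20a, Bub1 and Melk, higher in supine lungs by 1.71, 1.32 and 1.45. Aurka, Kif11 and Ccnb1 were higher too, by 1.02, 1.08 and 0.93, and Cdc25b stood at -0.31. CHR letters lay in 16 of 23 later and 1 of 11 earlier genes, so the division by motif largely repeats that by role. These are descriptions of genes that share arrays, with no test of the difference between the classes.

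Prone and supine lungs were also compared with each other. Of the 42 genes, 38 had a higher mean in supine than in prone lungs, where 57.4% of all genes did, and the median difference was 0.43 against 0.07 over all genes. On 8 genes every supine array exceeded every prone array (19%, against 3.76% of all genes), and on 0 the reverse held (1.83% of all genes). These 8 were Mcm2, Ccna2, Ccnb2, Foxm1, Ttk, Mad2l1, Spc25 and Kif15. Of them, Mcm2 and Kif15 lay below both controls on every supine array, and Foxm1 and Ttk lay low on the scale and were not tested. Mad2l1 differed by 0.17 between positions, and its other probe set overlapped between them. No gene of the list and none of all probe sets passed the test (0 of 16896, or 0%; limma), and at an unadjusted p under 0.05 there were 4 listed genes higher in supine lungs and 0 lower, against 2.33% and 1.11% of all genes tested. Kif15 was higher in supine lungs by 1.59 ± 0.26 (adjusted p = 0.942, limma), Ccna2 by 1.13 ± 0.28, Spc25 by 0.98 ± 0.34 (0.63 without prone replicate 3) and Ccnb2 by 0.63 ± 0.25, each with adjusted p = 0.942. Cdk2 and Mcm2 stood at 0.49 ± 0.28 and 0.48 ± 0.24. On the lower side, Cdc25b stood at -0.95 ± 0.47 (-0.58 without supine replicate 1), E2f1 at -0.22 ± 0.32 and Tk1 at -0.05 ± 0.39. Mki67 differed by 0.14 ± 0.71 between positions, and Aurkb by 1.25 ± 1.00, or 0.25 without supine replicate 2. Between arrays of the same replicate number, Aurkb was higher in the supine rat by 0.67, 1.74 and 1.33 and Ube2c by 0.97, 1.05 and 0.35, while Mki67 differed by 0.17, -0.30 and 0.54. In all 3 such pairs 25 of the 42 genes were higher in the supine rat (59.5%, against 22% of all genes) and 2 lower (4.76%, against 10.1%). The labels do not say what a replicate number marks, so these pairs cannot be taken as matched rats. With the replicate number as a block, the adjusted p was 0.704 for Aurkb and 0.698 for Ube2c (limma). Without supine replicate 3 the count of 8 was 11 (26.2%, against 9.36% of all genes), and without both first arrays it was 25 (59.5%, against 23.5%).

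The rats of each group also differed among themselves. Taken from the control mean, the 27 later genes had median deviations of 0.31, 0.77 and 0.33 on the prone arrays and of 0.54, 1.65 and 1.12 on the supine arrays, in order of replicate number. The controls stood at -0.01 and 0.01. All 6 ventilated arrays had positive medians for these genes, and supine replicate 2 was highest. The 15 earlier genes had medians of -0.08, -0.13 and -0.41 on prone and 0.09, 0.03 and -0.15 on supine arrays, where the medians of all genes lay between -0.17 and 0.06. For 18 of the 42 genes (42.9%, against 20.4% of all genes) the first array was the lowest of its group in both positions, among them Mki67, Aurkb, Melk, Cenpf, Kif23, Prc1 and Ect2; for 5, among them Ube2c and Aurka, it was the highest in both (11.9%, against 32.8%). Without supine replicate 3 the count of genes higher on all supine arrays was 25 of 42 (59.5%, against 24% of all genes). Without both first arrays it was 28 (66.7%, against 25.6%) in supine and 22 (52.4%, against 27%) in prone lungs.

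**Figure D4:**
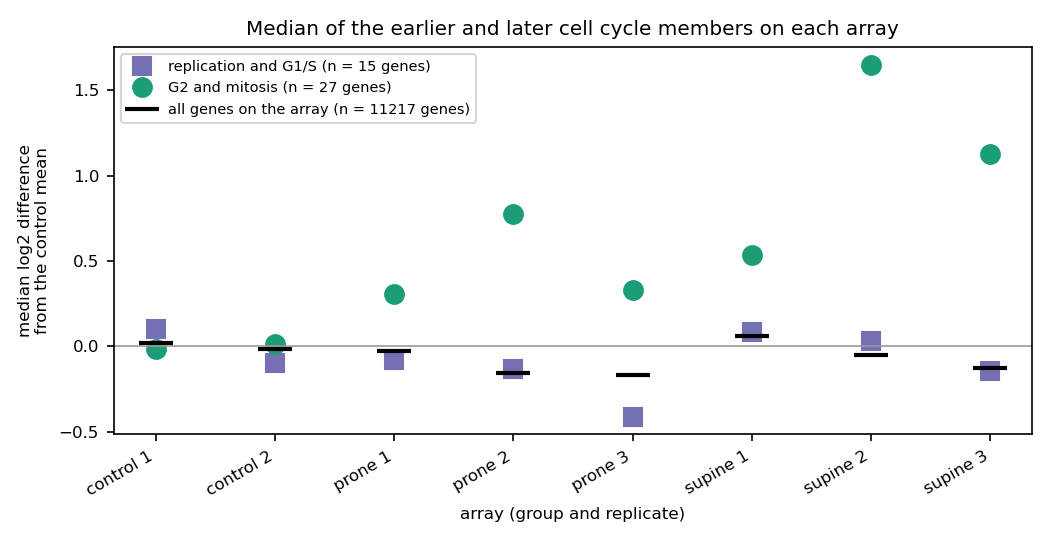
Median log2 difference from the control mean on each of the 8 arrays for 15 genes of replication and G1/S (squares), 27 genes of G2 and mitosis (circles) and all 11217 genes (bars). The circles lie between 0.31 and 1.65 on the 6 ventilated arrays, and the squares between -0.41 and 0.09.

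Other genes of the same pathway, from a second list of 71 genes of which 53 were on the array and 43 tested, were counted in the same way. None passed the test (limma), and at an unadjusted p under 0.05 in prone lungs 2 were higher and 5 lower, and in supine lungs 7 were higher and 1 lower. These are 4.65% and 11.6% in prone lungs, against 6.36% and 10.7% of all genes tested, and 16.3% and 2.33% in supine lungs, against 6.48% and 7.86%. In prone lungs 20.8% were higher and 26.4% lower on all arrays than on both controls (all genes 19.2% and 28.3%), and in supine lungs 24.5% and 15.1% (all genes 19.4% and 22.6%). The 15 further genes of mitosis had medians of 0.32 and 0.60, and the 13 further genes of replication medians of -0.28 and -0.01. Cdkn3, a phosphatase that acts on Cdk1 and Cdk2, read 5.50 and 5.63 on the controls, 6.57, 6.77 and 6.37 on prone and 7.64, 7.14 and 7.18 on supine arrays, so that its 3 groups did not overlap. It was higher by 1.00 ± 0.29 and 1.75 ± 0.29 (adjusted p = 0.162 and 0.15). Cdkn1a, the inhibitor p21 that arrests the cycle downstream of p53, was higher too, by 1.49 ± 0.60 and 1.76 ± 0.60 (adjusted p = 0.254 and 0.274), and read 9.60 on both controls and between 10.22 and 12.01 on the ventilated arrays.

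Among the lower genes of that list, Cdkn2c, an inhibitor of Cdk4 and Cdk6, stood at -2.35 ± 0.84 in prone lungs (adjusted p = 0.215, limma), and Rfc4, a subunit of the clamp loader, at -0.95 ± 0.35 (adjusted p = 0.221). In supine lungs Cdca3, a trigger of mitotic entry, stood at 1.38 ± 0.41, Rbl2, the pocket protein p130 of resting cells, at -1.34 ± 0.52, and Cdkn1b, the inhibitor p27, at -1.12 ± 0.50 (adjusted p = 0.245, 0.3 and 0.342). Between positions Cdkn3 and Fen1, a nuclease of lagging-strand synthesis, were higher in supine lungs by 0.75 ± 0.26 and 0.75 ± 0.30, and Cdkn1b and Ccnf, a cyclin that directs protein degradation, stood at -0.72 ± 0.45 and -0.29 ± 0.26 (adjusted p = 0.942 for each). The G1 genes Ccnd1, Ccnd2, Ccnd3 and Cdk4 had lower means than the controls in both positions, with a median of -0.60 in prone and -0.46 in supine lungs.

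Markers of blood and surface cells moved with the same groups, and in bulk tissue a change in the number of cells of a type and a change in RNA per cell cannot be told apart. All 8 neutrophil markers had higher means in both ventilated groups; the list's median deviation from the control mean was 1.78 to 4.79 on prone and 1.49 to 3.75 on supine arrays. All 9 lymphocyte markers on the array had lower means in both groups, with medians of -3.84 to -1.30 and -1.87 to -0.68. The 5 mesothelial markers had lower means in both groups, with medians of -3.45 to -1.33 on prone and -4.05 to -3.07 on supine arrays. The 5 erythroid markers had medians of 0.14 to 2.30 on prone and -0.61 to 1.00 on supine arrays, and the 5 macrophage and monocyte markers -1.03 to -0.35 and -0.25 to 1.30. The median of the 3 cardiac muscle markers reached 5.86 on prone replicate 2 and 5.01 on supine replicate 3. That of the alveolar type 2 markers lay between -0.57 and 0.13 on all ventilated arrays, with single markers further off. The 5 endothelial markers had medians of -0.62 to 0.08 on prone and -0.90 to -0.15 on supine arrays. For the 4 alveolar type 1 markers these were -0.85 to -0.35 and -0.88 to -0.34, and for the 2 airway markers 0.28 to 1.43 and -0.06 to 0.61. The part of these shifts in the values of the cell cycle genes was not tested.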

How the data were processed

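Lung RNA of 8 rats was hybridised to 1-colour Affymetrix rat arrays from 300 ng of total RNA each. The deposited values are log2 summaries per probe set, made with GCRMA, per the submitters' processing notes, which also name Partek 6.5. Detection calls and filters by the authors are not stated in the labels, so nothing marks where signal ends and background begins, and the number of arrays limits precision. The members and gene lists were chosen with earlier results of these data known.

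Of 20242 probe sets, 28 controls were set aside, and 16896 at log2 5 or above on at least 2 arrays were tested; this held for 10240 named genes. Symbols came from GEO's platform annotation, in which 14997 probe sets had 1 symbol, 353 several and 4892 none; RefSeq (GRCr8) changed 0. All 8 arrays entered a linear model with a mean for each group (limma 3.58.1, R 4.3.3; 5 residual and 2.51 prior degrees of freedom), two-sided, with Benjamini-Hochberg adjustment over all probe sets. P-values set each difference between groups against the spread between these samples. Differences are between group means, ± gives the standard error unless SD is stated, and "lower" or "higher on all arrays" means that the groups did not overlap. On simulated data for supine against control (16896 probe sets) the test recovered 0% of differences of 1 log2 unit, 18% of 2 units, 84% of 4 units and 96% of 6 units.

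Deviations from group means correlated between same-numbered arrays, with r between 0.109 and 0.721 over the 7 pairs. Arrays of different number were not compared in this way, so these values cannot show that the numbers pair the samples. The main model was unpaired, and a replicate block was fitted as an alternative. The labels do not say what a number marks. Genes given in full were, per comparison, the 6 higher and 4 lower with the smallest p, fewer where fewer were lower, and the largest difference in each role group. Other genes of the pathway were named if among the 2 smallest p in each direction. Alternatives were other filters, scalings, weights and probe sets, and arrays left out in turn; some were added after seeing the data, as the closing section says.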

Additional observations from a re-analysis of the deposited data

Results flagged for a closer look

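Ttk, a kinase of the spindle checkpoint, lay below both controls on all 3 prone arrays and above both on all 3 supine arrays, a difference of 0.86 log2 units between supine and prone means. It read 3.27 and 3.19 on the controls, 3.15, 3.01 and 3.11 on prone and 3.77, 4.54 and 3.55 on supine replicates 1 to 3. All 8 values lie at the low end of the scale, where Ttk was not tested, so the difference between positions was not tested. With arrays centred on their medians the prone difference turned from -0.14 to 0.003.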

How the results depend on the processing

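The count of listed genes past the threshold in prone lungs was 0 as reported. It was 1 in a fit of the compared groups only and 13 with array weights. In a fit without both first arrays, added after seeing the data, it was 4 (Ccnb2, Kif20a, Kif15 and Mki67). Of these 4, Kif20a lay under the level for testing on both controls and was tested because of the ventilated arrays. Array weights gave the controls 4.67 each and the ventilated arrays 0.283 to 1.81. In supine lungs it was 1 (Ccnb2) with array weights and 0 to 1 with single arrays left out. It stayed 0 under the other alternatives, the replicate block included, which changed no call of a listed gene; between positions it was 0 under all. The count over all probe sets was unstable. In prone lungs, 9 became 35 with no filter, 0 at a filter of log2 7, with the replicate block or with an intensity trend, 119 for the compared groups only, 5724 with array weights, 728 without both first arrays, and 0 to 115 with single arrays left out. In supine lungs, 9 became 18 with no filter, 36 with array weights, 0 at a filter of log2 7, for the compared groups only, with the block, with a trend or without both first arrays, and 0 to 153 with single arrays left out. Between positions single arrays left out gave 0 to 3. With a control left out, the lone control is assumed to vary like the other groups.

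The median over the tested genes kept its sign under all alternatives run. Leaving out single arrays gave 0.19 to 0.47 in prone, 0.51 to 0.98 in supine and 0.23 to 0.50 between positions, and without both first arrays the supine median was 0.98. Centring the arrays moved the median of all probe sets in prone lungs from -0.12 to 0.03. The other counts below were added after seeing the data. With centring, 5 rather than 9 genes lay below both controls in prone lungs, and 21 rather than 17 above, while the share of all genes moved from 28.3% to 22% and from 19.2% to 26.7%. Between positions, leaving out both first arrays gave 25 genes higher (59.5%, against 23.5% of all genes) and 1 lower (2.38%, against 13.8%). Leaving out single arrays gave 8 to 19 higher and 0 to 3 lower. The 8 (19%, against 5.79%) were without prone replicate 3 and the 19 (45.2%, against 7.36%) without supine replicate 1. The 3 lower (7.14%, against 7.03%) were without supine replicate 2. The share of all genes moved too: without prone replicate 1 it was 14 genes (33.3%) against 20% of all genes, and without supine replicate 2 it was 10 (23.8%) against 13.5%. Genes lower on all supine arrays numbered 4 to 7 with single supine arrays left out. They were 5 (11.9%, against 34.9% of all genes) without replicate 1 and 7 (16.7%, against 31.7%) without replicate 2. Without replicate 3 they were 4 (9.52%, against 25.5%). Signs turned between positions for Mki67 (-0.33 with array weights, -0.50 to 0.76 with single arrays left out), Tk1 (-0.34 to 0.34 with single arrays left out) and Rrm1 (-0.0086 without supine replicate 2, up to 0.40), and in supine lungs for Kif23 (0.032 without replicate 1 or both first arrays, down to -0.99 without replicate 2). The causes were not tested.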
